A study of Mus musculus with 15 samples.

Results

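Septic and sham-operated hearts of mice without a working Nos2 gene were compared, 3 arrays of each group among the 15 arrays of the series. Nos2 encodes inducible nitric oxide synthase (iNOS), which immune and other cells switch on during infection and which then makes nitric oxide in large amounts. Nitric oxide relaxes vessels through soluble guanylate cyclase, and it depresses the contraction of heart muscle when much of it is made. The comparison therefore describes the heart in sepsis where this enzyme is lacking in all animals, controls included. The 6 arrays were chosen by their titles, and all 12393 genes with a probe set of their own entered, with no selection by value.

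All 6 mice carried the allele Nos2tm1Lau on a congenic B6.129P2 background, so the deletion is shared by both groups and is constitutive rather than limited to a cell type. The CLP group had caecal ligation and perforation, in which the tied and punctured caecum leaks gut bacteria into the abdomen. In the sham group the caecum was handled and put back. Anaesthesia with isoflurane, buprenorphine and saline were given to both groups, as were ketamine and xylazine before the hearts were taken at 48 h. Each heart was powdered whole, total RNA was extracted and 1 array was hybridised per heart. No source used here gives age or sex, and nothing states that the hearts were pooled. The p-values measure the spread between these hearts only.

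The deposited values are differences on a log scale, centred for every probe set, with the log base not given. They hold no expression level, so a fold cannot be computed, genes cannot be ranked by abundance, and the presence of cardiac genes such as Myh6 cannot be used to check the tissue label. Nos2 itself, on 1 probe set whose place relative to the deletion is not given here, stood at -1.43 and 0.57 on CLP replicates 2 and 3. On sham replicates 1, 2 and 3 it stood at 0.12, -0.72 and 1.06. The groups overlapped, with a difference of -0.59 ± 0.79 (SE), and a value centred in this way checks neither the deletion nor the labels.

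The column of CLP replicate 1 is tied to the other CLP columns. Multiplied by 3, this column minus the columns of CLP replicates 2 and 3 gave exactly the same constant, -0.179, in 4434 of 22690 probe sets, within 1e-05. The column as deposited is thus the mean of replicates 2 and 3 and of a further set of values, up to that constant. It lay between replicates 2 and 3 in 76.0% of probe sets, and its SD over probe sets was 0.683 against 0.978 to 1.09 in the other columns. The further set of values, called the remainder here, had the same mean as the other columns, -0.0144 (sham replicate 1 is shifted up by 0.018). Its values ran from -12.6 to 0.786, however, whereas the other columns reached 6.90 to 8.18. What the remainder represents was not determined. CLP replicate 1 was therefore kept out of the tests, which used 2 CLP and 3 sham arrays, and its values are shown beside them.

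Another array stood apart by its sex-linked genes. On sham replicate 2 the Y-linked genes Eif2s3y, Uty and Kdm5d reached 5.76, 4.85 and 4.04 while Xist, the RNA that silences an X chromosome in females, lay as low as -6.91. On CLP replicates 2 and 3 and on sham replicates 1 and 3 the same 4 probe sets lay between -0.27 and 0.45. The sexes thus differ within the sham group as far as these genes show, and for some of the lists counts are also given without sham replicate 2. On CLP replicate 1 as deposited, Xist was low too, at -3.63 on the same probe set. The Y-linked genes lay between -0.064 and 0.080 there. The difference between the 5′ and 3′ control probe sets of Gapdh and Actb, a sign of RNA integrity, averaged -2.06 and -0.776 on the CLP arrays and -1.97, 0.209 and 0.981 on the sham arrays. It was thus similar in CLP replicate 2 and sham replicate 1, with CLP replicate 3 between these and the other sham arrays.

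No gene passed the adjusted threshold of 0.05 in either direction (0% of 12393 genes; limma with Benjamini-Hochberg adjustment). The lowest adjusted p was 0.0820, shared by 32 genes, and 87 genes lay under 0.10, of which 38 were higher and 49 lower in CLP. At an unadjusted p under 0.05 there were 1476 genes (11.9%), 722 higher (5.83%) and 754 lower (6.08%). Both CLP arrays lay above all sham arrays in 1856 genes (15.0%) and below them in 1731 (14.0%). Over all genes the median difference was 0.029. With CLP replicate 1 as deposited counted as an added CLP array 295 genes passed (116 higher, 179 lower), but that column is no independent array. Without the 25% of genes with the largest spread within groups 732 of 9295 passed, a filter that uses the same spread as the test. These shares are the background against which the gene lists below are read, and every difference in the following paragraphs is one that did not pass the adjusted threshold. The values are given as mean CLP minus mean sham with the SE of the fit, after the arrays' own values in the order CLP replicates 2 and 3, then sham replicates 1, 2 and 3.

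**Figure D1:**
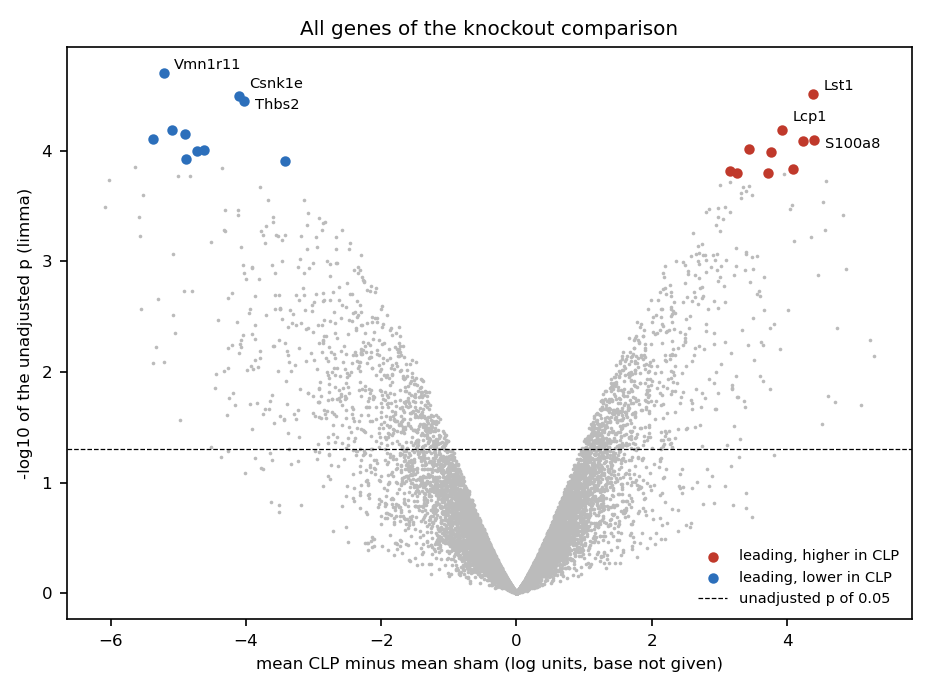
Each point is 1 of 12393 genes, with mean CLP minus mean sham on the horizontal axis (log units, base not given) and -log10 of the unadjusted limma p on the vertical axis. The coloured points are the 10 genes of smallest p in each direction whose arrays do not overlap between groups, all at an adjusted p of 0.0820, and the dashed line is an unadjusted p of 0.05.

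The genes that led the higher direction were mostly genes of myeloid cells, the macrophages, monocytes and neutrophils of innate immunity. Lst1, a transmembrane protein of leukocytes, stood at 4.25 and 4.05 against 0.10, -0.33 and -0.48, a difference of 4.38 ± 0.42. Lcp1, the actin-bundling L-plastin of blood cells, stood at 4.01 and 3.46 against 0.023, -0.20 and -0.38. S100a8, a subunit of the neutrophil protein calprotectin, stood at 5.03 and 3.83 against 0.018, -0.012 and 0.080. Both CLP arrays of each gene lay far above a narrow sham range, and they lay closer together for Lst1 and Lcp1 than for S100a8. C1qb, a chain of complement C1q made by macrophages, differed by 4.24 ± 0.48 and Fcer1g, the signalling chain of Fc receptors, by 4.09 ± 0.51. C3ar1, the receptor for the complement fragment C3a, differed by 3.26 ± 0.41, and Fcrls, a scavenger receptor-like gene of resident macrophages, by 3.16 ± 0.40.

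The other 3 leading genes are not myeloid markers. Pde7a, a phosphodiesterase that breaks down cyclic AMP, stood at 2.76 and 2.53 against -0.90, -0.86 and -0.64. Selenos, a selenoprotein of the endoplasmic reticulum membrane that takes part in removing misfolded proteins, stood at 3.83 and 2.90 against -0.60, -0.25 and -0.20. Ifi27l2a, an interferon-inducible gene, stood at 3.61 and 3.24 against 0.018, -0.33 and -0.72. On CLP replicate 1 as deposited, the 10 genes lay between 1.61 and 2.76, above every sham array. In the remainder, however, they lay between -0.42 and 0.52, near the sham arrays, and no value of the remainder exceeds 0.786, so that the height of that column comes from replicates 2 and 3. In bulk tissue, more or fewer cells of a type and more or less RNA per cell cannot be told apart, here and in all that follows.

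The genes that led the lower direction had no common theme by name. Vmn1r11, annotated as a vomeronasal pheromone receptor, stood at -0.26 and -0.64 against 5.11, 4.95 and 4.23, the only leading gene that lay farther from its centre on the sham than on the CLP arrays. Thbs2, the matrix glycoprotein thrombospondin 2, stood at -3.83 and -3.62 against 0.19, 0.38 and 0.33. Csnk1e, a casein kinase that phosphorylates the PER clock proteins, stood at -2.85 and -2.95 against 1.28, 1.03 and 1.30. For each of these genes the CLP values, as means over probe sets, lay close together. The 2 probe sets of Csnk1e differed, however. One lay at -0.68 and -1.74 on the CLP arrays and the other at -5.02 and -4.16. Aqp7, a channel for water and glycerol, differed by -5.09 ± 0.56, and Ltbp4, which binds latent TGF-beta in the matrix, by -4.91 ± 0.54. Gsn, the actin-severing gelsolin, differed by -3.42 ± 0.42 as the mean of 6 probe sets. Dpep1, a dipeptidase of the cell surface, differed by -4.72 ± 0.56 and Cd99, a surface glycoprotein, by -4.89 ± 0.59. Bbip1, a small subunit of the BBSome of cilia, differed by -5.37 ± 0.61 and Plekhg5 by -4.61 ± 0.54.

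In the remainder of CLP replicate 1, whose range reaches far down but not above 0.786, the lower genes lay low. Thbs2 lay at -2.63, Bbip1 at -5.15, Cd99 at -4.86 and Gsn at -1.93, on the side of the CLP arrays, and all but Vmn1r11 lay at -1.93 or lower. Vmn1r11 lay at -0.79, again with the CLP arrays. With the remainder as an added CLP array, 19 genes passed the adjusted threshold, and 9 of the 10 leading lower genes were among them, Gsn being the exception. All 19 were lower in CLP, a direction that the upper limit of the remainder favours, since a gene high on the CLP arrays loses size and gains spread when these values enter. Neither the lower genes' place in the remainder nor this count is evidence that they differ from the higher ones. Over all genes the CLP arrays and the remainder together lay below all sham arrays in 671 genes (5.41%) and above them in 1463 (11.8%).

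**Figure D2:**
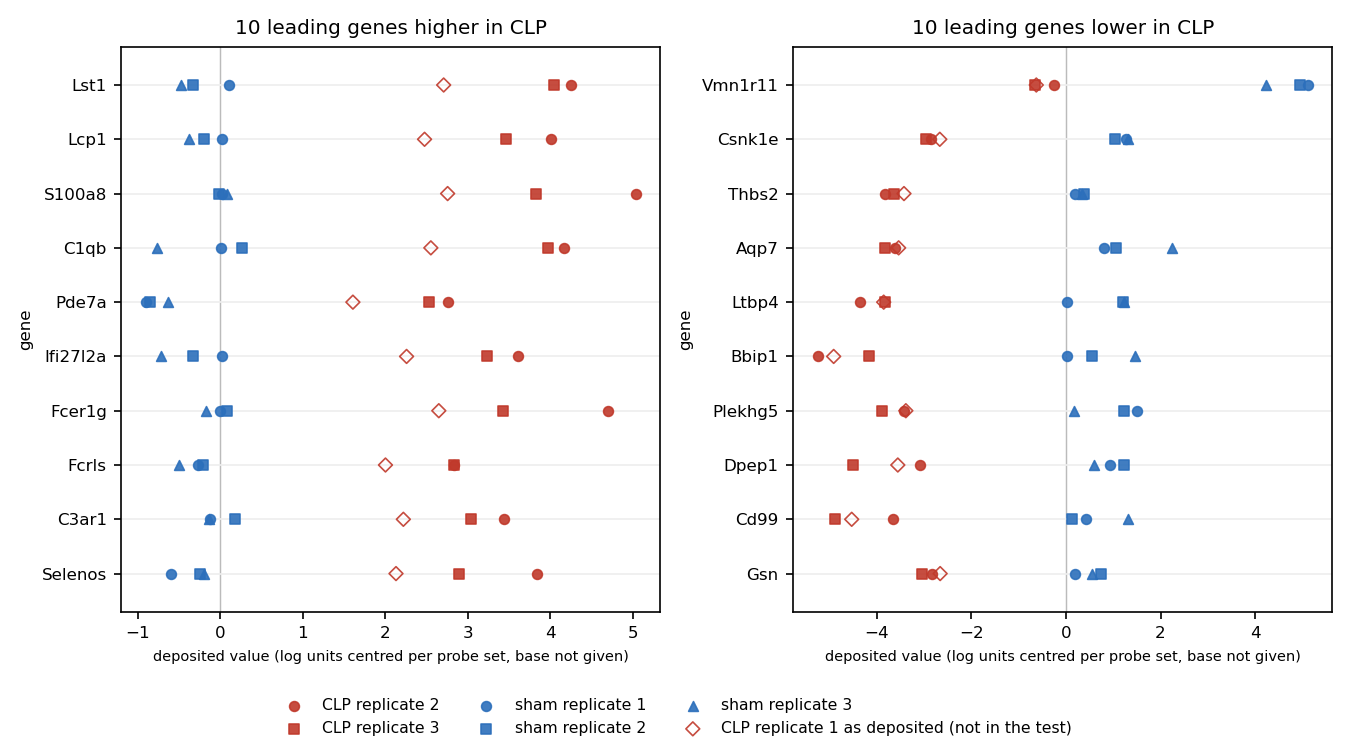
Each row is a gene and each symbol an array: filled red for CLP replicates 2 and 3, filled blue for the 3 sham arrays, open red for CLP replicate 1 as deposited, which did not enter the test. The horizontal axis is the deposited value in log units centred per probe set; in every row the filled red and blue symbols do not overlap.

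Among macrophage and monocyte markers, 16 of 21 measured members had both CLP arrays above all sham arrays and 0 had both below. Of these markers, 13 were higher and 0 lower at an unadjusted p under 0.05, and the median difference was 2.26. Aif1, the calcium-binding protein of activated macrophages, stood at 3.31 and 2.83 against 0.018, -0.081 and -0.19. C1qa, a second chain of complement C1q, stood at 3.28 and 3.02 against -0.25, 0.32 and -0.60. Tyrobp, the DAP12 adaptor of myeloid receptors, differed by 3.10 ± 0.54. The markers did not all behave alike: Csf1r, the receptor for the macrophage growth factor, differed by -0.10 ± 0.56, and Cd163, a haemoglobin scavenger receptor, by -0.62 ± 1.17 with sham arrays from -1.90 to 2.17. These latter genes were named after their values were seen. Without sham replicate 2, 14 markers were higher at an unadjusted p under 0.05, against 5.26% of all genes in that fit. The remainder lay above all sham arrays in 14 of 21 markers, against 33.8% of all genes, though never above 0.786.

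Of the neutrophil list, 10 of 14 measured members had both CLP arrays above all sham arrays and 0 had both below, and 6 were higher and 0 lower at an unadjusted p under 0.05. Without sham replicate 2, 5 were higher at that p. S100a9, the partner of S100a8 in calprotectin, stood at 5.53 and 3.77 against 0.24, 0 and -0.033. Mmp8, the neutrophil collagenase, stood at 4.28 and 1.76 against -0.33, -0.64 and 0. Ngp, a granule protein formed late in neutrophil development, lay higher in CLP replicate 2 than in replicate 3 in the same way, at 4.68 and 1.74 against 0.018, -1.14 and 0.20. Some granule genes had small or negative differences. Among the granule proteases, Elane differed by 0.39 ± 0.40, Prtn3 by -0.066 ± 0.40 and Ctsg by -0.97 ± 0.62, with Mpo, the myeloperoxidase of the same granules, at 0.38 ± 0.56. These 4 were named after their values were seen. Only 11 members had a positive difference, so the 10 above the sham arrays include Elane or Mpo or both, at differences this small. Lyz2, the lysozyme of both neutrophils and macrophages, stands in both lists and differed by 2.97 ± 0.54.

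None of the 13 T and natural killer cell, 10 B cell or 6 red blood cell markers reached an unadjusted p under 0.05, and their median differences were -0.29, -0.58 and -0.30. Among 6 platelet markers, Ppbp and Pf4, chemokines stored in platelet granules, stood at 2.31 and 3.17 against -0.45, -0.86 and -0.65 and at 2.36 and 1.87 against -0.57, -0.45 and -0.46. No other platelet marker reached that p.

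Acute phase genes and targets of STAT3, the transcription factor that carries the interleukin-6 signal, lay higher as a group. Of these, 14 of 27 measured members had both CLP arrays above all sham arrays and 1 had both below. In the same list, 9 were higher and 0 lower at an unadjusted p under 0.05, with a median difference of 0.98. Lcn2, the iron-withholding lipocalin 2, stood at 5.27 and 3.52 against 0.018, 0.24 and -0.67. Saa3, an acute phase serum amyloid, stood at 5.60 and 3.30 against 0.018, -0.022 and -0.34, and Serpina3n, a protease inhibitor, at 4.75 and 2.55 against 0.018, -0.027 and -0.018. In each of these genes CLP replicate 2 was the highest array, CLP replicate 3 came next, and the sham arrays lay near the centre. Socs3, the feedback inhibitor of STAT3, differed by 3.02 ± 0.81, over a wider spread. In the remainder Lcn2 lay at -0.71 and Saa3 at -0.44, not above the sham arrays.

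Chemokines, the proteins that draw leukocytes into tissue, lay on both sides. Of these, 11 of 25 measured members had both CLP arrays above all sham arrays and 1 had both below. Ccl9 and Cxcl13, which draw myeloid cells and B cells, differed by 2.83 ± 0.60 and 3.50 ± 0.77. Cxcl14 differed by 2.31 ± 0.49. The exception was Cxcl9, a chemokine induced by interferon gamma, at -1.40 and -1.61 against 3.15, 0.83 and 2.24. Interferon response genes had a median difference of -0.68, and 2 of 26 measured members had both CLP arrays above all sham arrays and 7 had both below. Iigp1, an interferon gamma-induced GTPase, lay on the same side as Cxcl9, at -1.44 and -0.34 against 2.52, 1.46 and 1.61. Ifitm1, a membrane protein that blocks virus entry, lay on the other side, at 4.59 and 2.00 against -0.51, -0.13 and -0.43. Among toll-like receptor and NF-kB feedback genes, Tlr1, a receptor for bacterial lipoproteins, and Nfkbiz, an atypical IkB protein, differed by 3.03 ± 0.54 and 2.57 ± 0.56. Il1b, the inflammatory cytokine interleukin 1 beta, differed by 2.28 ± 0.65. These were the only 3 of 20 genes of that list higher at an unadjusted p under 0.05, and 0 were lower. Both CLP arrays lay above all sham arrays in 4 of the 20, against 15.0% of all genes, and below them in 0. The list mean was 0.85 on CLP replicate 2 but -0.062 on replicate 3, against -0.21, -0.31 and -0.26 on the sham arrays.

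Antigen presentation by MHC class II went with the lower direction, unlike the macrophage markers. H2-Aa, the alpha chain of the class II molecule I-A, stood at -3.11 and -2.55 against 1.32, 3.22 and 1.99. Cd74, the invariant chain that guides class II molecules, stood at -1.95 and -2.82 against 1.28, 2.32 and 2.32. H2-Eb1, a chain of the I-E class II molecule, stood at -2.87 and -2.28 against 0.18, 1.64 and 1.01. All 3 lay lower in both CLP hearts than in any sham heart by more than the sham range. H2-Ab1, the beta chain of I-A, differed by -2.10 ± 0.46. In all, 1 of 7 measured members had both CLP arrays above all sham arrays and 4 had both below. The gene above was Ctss, the lysosomal protease cathepsin S that trims the invariant chain and is abundant in macrophages, at 2.70 and 1.65 against -0.25, 0 and -0.25. The remainder lay with the CLP arrays for H2-Aa, at -2.42, and Cd74, at -1.13.

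**Figure D3:**
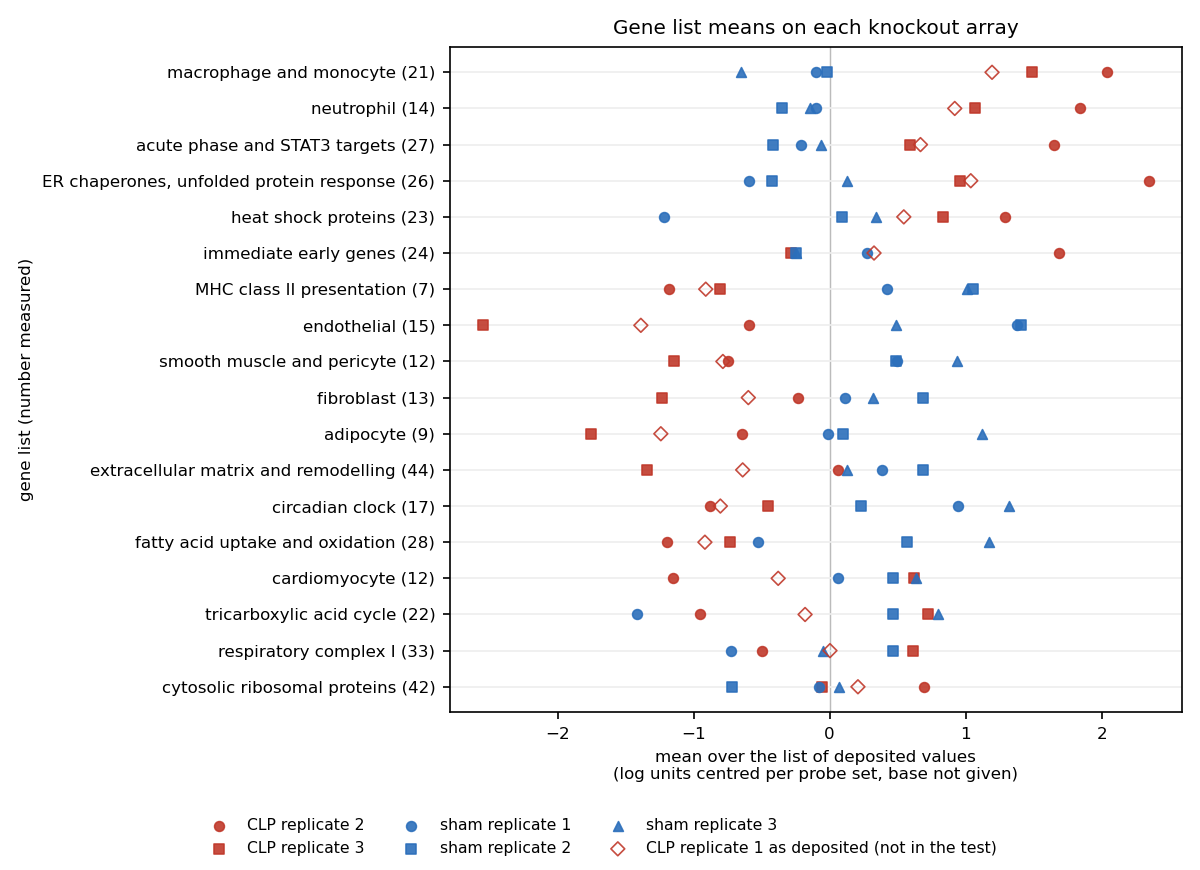
Each row is a gene list with the number of measured genes, and each symbol is the mean of its genes on an array (log units centred per probe set); colours and shapes stand for the arrays as in the plot of leading genes. The macrophage, neutrophil, acute phase and endoplasmic reticulum (ER) lists lay higher and the MHC class II, endothelial, smooth muscle and circadian lists lower on both CLP arrays than on every sham array, while the tricarboxylic acid cycle and complex I lists were lowest on CLP replicate 2 and sham replicate 1.

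Chaperones of the endoplasmic reticulum had the largest share of members above the sham arrays among the fixed lists except the macrophage and neutrophil lists. The compartment folds secreted and membrane proteins, and the unfolded protein response, run by the sensors IRE1, PERK and ATF6, induces its chaperones when misfolded proteins build up. Of the list, 18 of 26 measured members had both CLP arrays above all sham arrays and 1 had both below. At an unadjusted p under 0.05, 16 were higher and 0 lower, with a median difference of 1.84. Sdf2l1, a partner of the BiP chaperone, stood at 6.26 and 3.18 against -0.23, -0.24 and 0. Manf, a secreted ER stress protein, stood at 4.73 and 2.61 against -0.44, 0 and 0.64. Hsp90b1, the ER form of Hsp90 also called Grp94, stood at 5.19 and 2.32 against -0.31, -0.63 and 0.13. Calr, the calcium-binding lectin chaperone calreticulin, stood at 2.95 and 1.67 against -0.88, -0.44 and 0. In all 4 the value on CLP replicate 2 was above that on replicate 3, and both lay above the sham arrays.

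The signalling genes of the response, which belong to the same list, had values on both sides of its median. Eif2ak3, which encodes PERK, differed by -0.74 ± 0.45, Ern1, which encodes IRE1, by 0.40 ± 0.47, and Atf4, the transcription factor downstream of PERK, by 0.75 ± 0.58. Xbp1, the transcription factor whose mRNA IRE1 splices, differed by 2.46 ± 0.75, and Ddit3, which encodes the stress factor CHOP, by 2.58 ± 0.82. These 5 were named after their values were seen. Without sham replicate 2, 15 members were higher at an unadjusted p under 0.05 and the median difference was 1.97. By array, CLP replicate 2 alone lay above all sham arrays in 24 members (25.1% of all genes) and CLP replicate 3 alone in 18 (31.5% of all genes). The remainder lay above them in 10, against the same 33.8% of all genes.

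**Figure D4:**
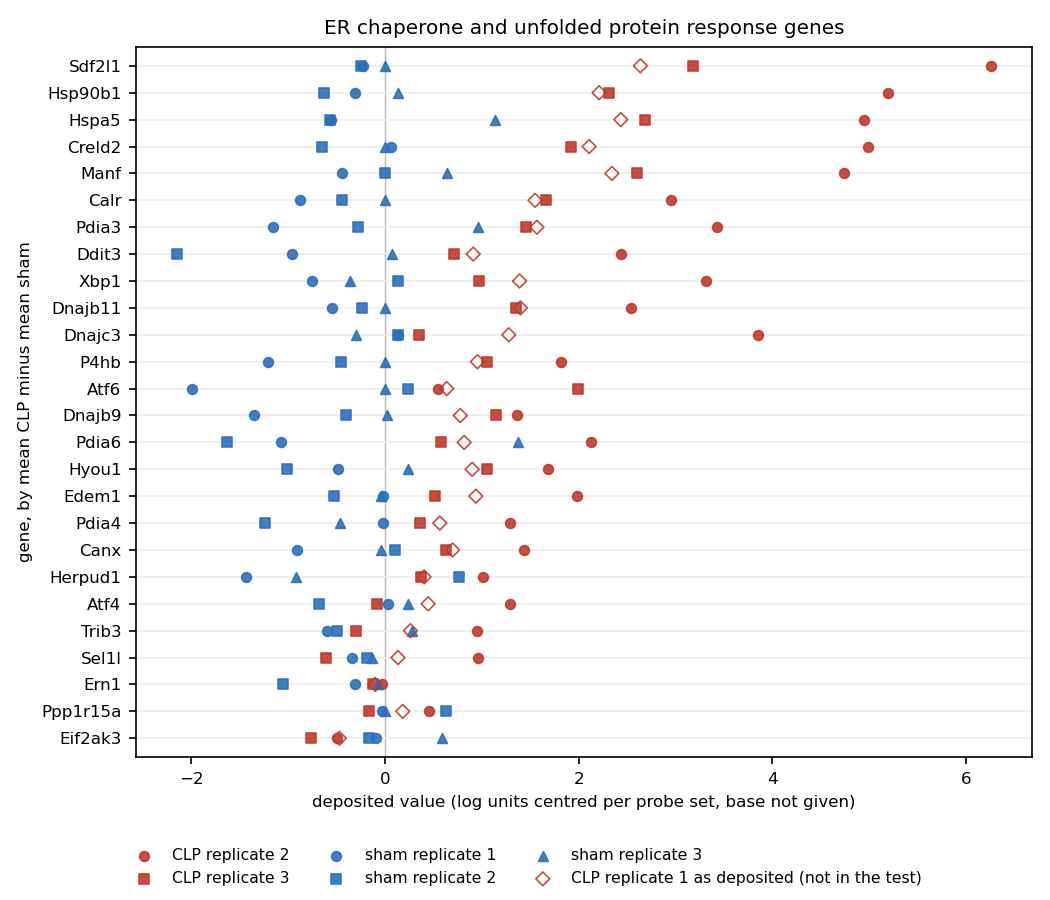
Each row is 1 of the 26 measured ER chaperone and unfolded protein response genes, ordered by mean CLP minus mean sham, and each symbol an array, with colours and shapes as in the plot of leading genes. The 6 rows at the top have CLP replicate 2 between 2.95 and 6.26, and the sensors Ern1 and Eif2ak3 are among the 3 rows at the bottom.

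The promoters of several of these chaperones hold the ER stress response element, the sequence through which ATF6 and the factor NF-Y act. It was searched on both strands as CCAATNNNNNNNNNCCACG in the 250 bases before each gene's start, in RefSeq promoters of build GRCm38.p6. It was present in 7 of the 23 measured members that matched a promoter (30.4%) and in 35 of 27025 genes in all (0.130%). The 7 were Calr, Canx, Creld2, Dnajc3, Hsp90b1, Hspa5 and Pdia6, and 6 of them had both CLP arrays above all sham arrays, Pdia6 being the exception. The 4 with the largest differences are printed here 5′ to 3′ in the direction of the gene, with the element in capitals, to show how they share it. A match is a description of the letters and shows neither binding nor a cause.
Hspa5: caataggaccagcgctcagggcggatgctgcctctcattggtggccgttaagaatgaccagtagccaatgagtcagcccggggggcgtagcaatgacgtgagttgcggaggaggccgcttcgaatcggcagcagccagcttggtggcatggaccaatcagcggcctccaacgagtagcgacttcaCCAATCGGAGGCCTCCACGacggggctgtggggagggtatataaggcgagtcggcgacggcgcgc
Hsp90b1: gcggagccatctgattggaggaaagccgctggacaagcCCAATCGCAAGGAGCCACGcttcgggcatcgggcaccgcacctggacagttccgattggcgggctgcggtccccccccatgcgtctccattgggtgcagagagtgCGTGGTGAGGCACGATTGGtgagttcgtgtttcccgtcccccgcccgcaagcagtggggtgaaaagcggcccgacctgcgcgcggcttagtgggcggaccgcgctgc
Creld2: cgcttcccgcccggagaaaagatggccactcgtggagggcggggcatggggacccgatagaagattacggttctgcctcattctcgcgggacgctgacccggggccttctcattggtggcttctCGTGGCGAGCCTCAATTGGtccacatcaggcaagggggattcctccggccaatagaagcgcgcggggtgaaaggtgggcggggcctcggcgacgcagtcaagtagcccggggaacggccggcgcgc
Calr: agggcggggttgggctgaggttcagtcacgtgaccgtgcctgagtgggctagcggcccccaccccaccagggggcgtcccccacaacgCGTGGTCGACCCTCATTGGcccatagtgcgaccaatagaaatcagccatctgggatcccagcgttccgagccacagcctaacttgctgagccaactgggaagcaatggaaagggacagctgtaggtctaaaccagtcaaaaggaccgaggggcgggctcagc

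These windows lie at chr2:34771840-34772089 on the + strand, chr10:86705445-86705694 on the - strand, chr15:88819396-88819645 on the + strand and chr8:84846932-84847181 on the - strand. Hsp90b1 alone among them holds the element at 2 places, which begin 212 and 107 bases before the start. In Hspa5 it begins 65 bases, in Creld2 126 bases and in Calr 162 bases before the start. Hspa5, which encodes the master chaperone BiP, stood at 4.95 and 2.69 against -0.55, -0.57 and 1.13. Creld2, a secreted ER stress protein, stood at 4.99 and 1.92 against 0.058, -0.65 and 0. The other members with the element differed by 1.31 (Canx, the lectin chaperone calnexin), 2.11 (Dnajc3, a co-chaperone of BiP) and 1.80 (Pdia6, a disulphide isomerase), where sham replicate 3 lay at 1.38, above CLP replicate 3 at 0.58. Sdf2l1 and Manf, the members of smallest p, are not among the genes with these letters in the window.

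The heat shock list, which covers chaperones of the cytosol and mitochondria and heat shock transcription factors, lay in the same direction. In this list 9 of 23 measured members had both CLP arrays above all sham arrays and 0 had both below, and 6 were higher and 0 lower at an unadjusted p under 0.05. Hsph1, the Hsp110 chaperone, stood at 4.63 and 2.50 against -0.28, -0.23 and 0.53, and Hspa8, the constitutive Hsp70, at 3.19 and 1.58 against -0.78, -0.79 and 0.30. Hsp90aa1, the inducible cytosolic Hsp90, differed by 3.27 ± 1.02 with CLP replicate 2 at 4.81 and replicate 3 at 1.18. On sham replicate 1 the list mean was -1.22, lower than on the other sham arrays at 0.090 and 0.34. Immediate early genes, which respond within minutes to growth factors and stress, depended on the array: the list mean was 1.69 on CLP replicate 2 but -0.29 on replicate 3. Fos, a subunit of the AP-1 transcription factor, was high on both, at 4.80 and 4.01 against -0.50, 0.72 and -1.48. Junb, another AP-1 subunit, stood at 5.45 and 1.97 against 0.018, 1.05 and -1.20.

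Proteasome genes lay near the shares over all genes, and ribosomal protein genes did so at the unadjusted p but not in overlap. Of 42 cytosolic ribosomal protein genes, 14 had both CLP arrays above all sham arrays (33.3%, against 15.0% of all genes), with a median of 0.66. Only 2 were higher at an unadjusted p under 0.05, near the 5.83% of all genes. Their list means were 0.69 and -0.060 on the CLP arrays and -0.078, -0.72 and 0.069 on the sham arrays, so the groups overlapped. Of 39 proteasome genes these counts were 7 (17.9%) and 3, near the shares over all genes. Psma7, a subunit of the proteasome core, stood at 2.13 and 1.94 against -0.93, 0 and -0.56. Among muscle atrophy and autophagy genes, Fbxo32, the ubiquitin ligase atrogin-1 of wasting muscle, differed by 3.28 ± 1.03, and it lay at -3.91 in the remainder. Cell cycle genes included Ccnd1, the cyclin of entry into the cycle, at 2.55 and 2.83 against 0.043, -1.57 and -0.57. Mki67, the proliferation marker Ki-67, stood at 2.11 and 2.18 against -0.060, -0.096 and 0, and 6 of 32 genes of that list were higher at an unadjusted p under 0.05.

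Endothelial markers made up the list with the largest share of members below the sham arrays. Of these, 0 of 15 measured members had both CLP arrays above all sham arrays and 12 had both below. In the same list, 0 were higher and 11 lower at an unadjusted p under 0.05, and the median difference was -2.89. Tie1, a receptor of endothelial cells, stood at -0.58 and -1.75 against 2.03, 2.95 and 2.34. Kdr, the main receptor for vascular endothelial growth factor, stood at -1.68 and -3.48 against 1.65, 0 and 1.11, and Cdh5, the cadherin of endothelial junctions, at -1.41 and -2.01 against 2.30, 3.15 and 0.52. Fabp4, a fatty acid binding protein of capillary endothelium and fat cells, stood at -2.31 and -5.33 against 2.19, 1.62 and 1.43. In each, CLP replicate 3 was the lowest array. Over the list, the means were -0.60 and -2.55 on the CLP arrays and 1.37, 1.41 and 0.49 on the sham arrays.

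The members of this list that did not separate were few. Vwf, the clotting factor carrier stored in endothelial cells, was the only member with a higher CLP mean, at 2.46 and 0 against 1.25, -0.80 and -0.40. Flt1, a further receptor for vascular endothelial growth factor, was low on CLP replicate 3 only, at 0.32 and -3.04 against 0.11, -0.67 and 0.62. Both were named after their values were seen. CLP replicate 2 alone lay below all sham arrays in 12 of 15 members (28.1% of all genes), CLP replicate 3 alone in 14 (24.0% of all genes) and the remainder in 12 (8.97% of all genes). Without sham replicate 2, 8 members were lower at an unadjusted p under 0.05, against 6.07% of all genes. Since it was not determined what the remainder represents, its count is a description and does not count as a further CLP heart.

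The other genes of the nitric oxide pathway were of interest because both groups lack Nos2. Nos3, the endothelial synthase, stood at -1.26 and -3.49 against 2.10, 1.57 and 0. Gucy1b1, the haem-binding subunit of soluble guanylate cyclase that senses nitric oxide, stood at -1.50 and -1.68 against 0.21, 1.20 and 1.12. Ddah2, which breaks down inhibitors of nitric oxide synthases, stood at -1.57 and -1.69 against 0.11, 0.91 and 1.16. All 3 lay lower on both CLP arrays than on any sham array, and they are the only 3 of 17 members at an unadjusted p under 0.05. Gucy1a1, the partner subunit of the cyclase, differed by -1.65 ± 0.71. Since endothelial markers lay lower on the same arrays, the part of fewer endothelial transcripts in the Nos3 value was not tested.

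**Figure D5:**
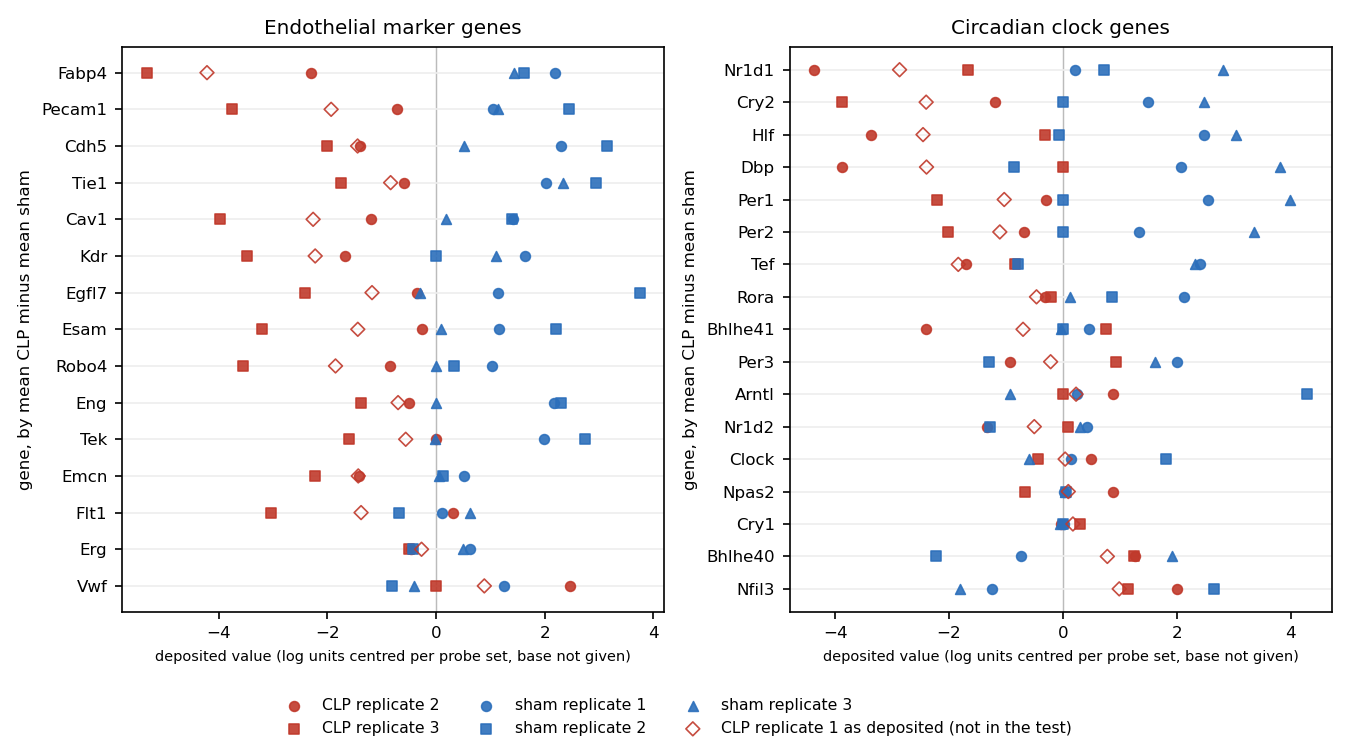
Rows are the 15 endothelial markers on the left and the 17 circadian clock genes on the right, ordered by mean CLP minus mean sham, with arrays shown as in the plot of leading genes (log units centred per probe set). CLP replicate 3 is the lowest array for most endothelial markers, and sham replicate 2 lies apart from the other sham arrays for several clock genes.

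Vessel wall and connective tissue genes lay in the same direction as the endothelial ones. Among smooth muscle and pericyte markers, 1 of 12 measured members had both CLP arrays above all sham arrays and 7 had both below. Pdgfrb, the platelet-derived growth factor receptor of pericytes, stood at -2.29 and -2.92 against 1.07, 2.66 and 0.69, and Rgs5, a pericyte regulator of G protein signalling, at -1.32 and -2.66 against 1.15, 2.82 and 0.31. Myh11, the smooth muscle myosin, differed by -1.68 ± 0.48. Among fibroblast markers, 8 of 13 lay below, and Dcn, the proteoglycan decorin, stood at -0.40 and -3.65 against 1.28, 1.05 and 0.61. Pdgfra, the receptor that marks cardiac fibroblasts, differed by -1.99 ± 0.65.

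Of 44 extracellular matrix genes, 20 had both CLP arrays below all sham arrays and 6 had both above, and 4 were higher and 15 lower at an unadjusted p under 0.05. Without sham replicate 2, 2 were higher and 9 lower at that p. Sparc, a collagen-binding glycoprotein, stood at -1.39 and -3.35 against 0.99, 2.16 and 1.47. Postn, the matrix protein periostin of active fibroblasts, stood at -2.32 and -1.69 against 0.90, 1.57 and 0.088. Timp3, an inhibitor of metalloproteinases bound to the matrix, differed by -5.08 ± 1.10, with CLP replicate 3 at -6.45. Mmp8, described above as a neutrophil gene, is the member of smallest p among those higher. The list mean was 0.063 on CLP replicate 2, just under the lowest sham array at 0.13, and -1.34 on CLP replicate 3. Among adipocyte markers, 2 of 9 measured members had both CLP arrays above all sham arrays and 4 had both below, and 0 were higher and 4 lower at an unadjusted p under 0.05. Lipe, the hormone-sensitive lipase, stood at -1.81 and -3.81 against 0.040, 0 and 1.08.

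Clock genes lay lower in the CLP hearts, and also differed among the sham hearts. The circadian clock is a loop in which CLOCK and BMAL1 switch on the Per and Cry genes, whose proteins shut them off, and output factors follow the same rhythm. Of the list, 0 of 17 measured members had both CLP arrays above all sham arrays and 7 had both below, and 0 were higher and 6 lower at an unadjusted p under 0.05. Nr1d1, the repressor REV-ERB alpha, stood at -4.37 and -1.66 against 0.21, 0.72 and 2.82. Cry2, a repressor of the core loop, stood at -1.19 and -3.88 against 1.50, 0 and 2.48. Hlf, an output transcription factor, stood at -3.36 and -0.32 against 2.47, -0.069 and 3.05, and Per2, a repressor of the core loop, at -0.68 and -2.03 against 1.34, 0 and 3.36. Sham replicate 2 was the sham array nearest to the CLP arrays in Cry2, Hlf and Per2. Arntl, which encodes BMAL1 and peaks in antiphase to these genes, reached 4.29 on sham replicate 2 and between -0.92 and 0.87 on the others. It was named after its values were seen. No source used here gives the hour at which the hearts were taken, and the part of the hour in these differences was not tested.

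The E-box CACGTG, through which CLOCK and BMAL1 act, was found by the same search in 4 of the 15 clock genes that matched a promoter (26.7%) and in 6.86% of all 27025 genes. The 4 were Bhlhe41, Cry1, Per1 and Tef, and 2 of them had both CLP arrays below all sham arrays. Per1, a repressor of the core loop that glucocorticoids also induce, stood at -0.30 and -2.22 against 2.55, 0 and 3.99. Cry1 stayed near the centre, at -0.029 and 0.29 against 0.021, 0 and -0.052. Among glucocorticoid-responsive genes, 2 of 18 measured members had both CLP arrays above all sham arrays and 5 had both below, and 2 were higher and 5 lower at an unadjusted p under 0.05, with a median difference of -0.37. The CLP arrays lay on opposite sides of the sham arrays in the mean of this list, with means of 1.27 and -1.10 on the CLP arrays and 0.54, 0.43 and 0.41 on the sham arrays. Klf9, a transcription factor induced by these hormones, stood at -1.005 and -2.14 against 0.26, 0.26 and 1.38. Tsc22d3, the glucocorticoid-induced leucine zipper, differed by -1.04 ± 0.71, and Fkbp5, a co-chaperone of the receptor, by -0.67 ± 0.82. Angptl4, an inhibitor of lipoprotein lipase, differed by -4.26 ± 1.16, and Lcn2 is the member of smallest p.

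Genes of fatty acid use, the main fuel of the adult heart, lay lower as a group. Of the list, 1 of 28 measured members had both CLP arrays above all sham arrays and 11 had both below, and 0 were higher and 9 lower at an unadjusted p under 0.05. Without sham replicate 2, 7 were lower. The list means were -1.20 and -0.73 on the CLP arrays and -0.53, 0.57 and 1.17 on the sham arrays. Sham replicate 1 thus lay close to CLP replicate 3. Ucp3, an uncoupling protein of the inner mitochondrial membrane, stood at -2.39 and -3.25 against 0.61, 0.025 and 0.18. Acacb, which makes the malonyl-CoA that restrains fatty acid entry into mitochondria, stood at -2.53 and -1.05 against 0.88, 0.77 and 1.57. Acot1, a thioesterase of fatty acyl-CoA, stood at -1.57 and -5.17 against 0.19, 0 and 3.09. Pdk4, the kinase that shuts off pyruvate dehydrogenase when fat is burned, differed by -4.97 ± 1.75, but CLP replicate 2 lay at -0.58 and replicate 3 at -6.92. Acadm, the medium-chain dehydrogenase of beta-oxidation, overlapped between the groups and stood at -1.27 and 0.92 against -1.34, 0.76 and 0.93. It was named after its values were seen.

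The regulators of these genes did not share a direction. Ppara, the nuclear receptor that drives fatty acid oxidation genes, stood at 2.90 and 6.08 against 0.018, -3.08 and 0.69, the largest difference of its list. Its sham arrays lay far apart, it rests on 1 probe set, and it lay at -2.48 in the remainder. Pparg, the receptor of fat cells, stood at -1.14 and -3.47 against 0.018, 2.97 and 0.27, on the other side. Ppargc1a, the coactivator of mitochondrial biogenesis, differed by 0.87 ± 0.47 over 5 probe sets. Slc2a1, the basal glucose transporter, stood at 2.61 and 1.98 against -0.43, 0.17 and -0.79. It is the gene of smallest p among 21 of glycolysis and glucose uptake. Of that list 3 were higher and 0 lower at an unadjusted p under 0.05, but the median difference was -0.27. Both CLP arrays lay above all sham arrays in 3 (14.3%, against 15.0% of all genes) and below them in 0.

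The oxidative enzymes varied between the arrays within both groups. The tricarboxylic acid cycle list had means of -0.96 and 0.73 on the CLP arrays and -1.42, 0.46 and 0.79 on the sham arrays, and no gene of 22 reached an unadjusted p under 0.05. Complex I had 1 such gene of 33 and complexes III to V 1 of 38. In each of these lists CLP replicate 2 and sham replicate 1 lay lowest, the arrays with the most negative 5′ minus 3′ control difference given above. With that difference as a covariate no gene passed the adjusted threshold either, and the lowest adjusted p was 0.150. The part of RNA quality in the list means was not tested.

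Among sarcomere and Z-disc genes, 3 of 28 measured members had both CLP arrays above all sham arrays and 8 had both below, and 2 were higher and 6 lower at an unadjusted p under 0.05. Their list means were -1.08 and 0.48 on the CLP arrays and -0.12, 0.51 and 0.66 on the sham arrays, so that the arrays of both groups overlapped on the mean. Myh6, the fast myosin heavy chain of the adult mouse heart, stood at -2.13 and 0.018 against 2.16, 1.14 and 1.51, and Myh7, the slow form that stressed hearts re-express, at 3.89 and 2.50 against 1.06, -2.26 and 0. Their CLP arrays did not overlap the sham arrays, in opposite directions, at adjusted p-values of 0.217 and 0.229 (limma). For Myh6 this holds for the mean of 2 probe sets. On 1 of them the groups overlapped, at -2.76 and 0.64 against 1.70, 0 and 0.35. Myh7 rests on 1 probe set. Nppb, the B-type natriuretic peptide, differed by 3.30 ± 1.44. Nppa, its atrial relative, reached 5.28 on CLP replicate 3 and 4.95 on sham replicate 1 and lay at or under 0.99 on the others, so that its difference of 0.076 ± 2.31 has no settled sign. Atp2a2, the calcium pump of the sarcoplasmic reticulum, differed by 1.24 ± 0.51, Pln, its inhibitor phospholamban, by 0.14 ± 0.85, and Ryr2, the calcium release channel, by 0.89 ± 0.77. Of 21 calcium handling genes, 1 was higher and 0 lower at an unadjusted p under 0.05. On both CLP arrays 3 lay above (14.3%) and 4 below (19.0%) all sham arrays, against 15.0% and 14.0% of all genes. Of 12 cardiomyocyte markers these counts were 0, 3, 0 and 4 (33.3%).

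The remaining lists are described by a few genes each. Of 18 iron handling and metallothionein genes, 8 had both CLP arrays above all sham arrays and 1 had both below. In that list 5 were higher and 0 lower at an unadjusted p under 0.05. Mt2, a metallothionein that binds zinc, stood at 4.82 and 0.99 against -0.47, 0.96 and 0, so that CLP replicate 3 lay barely above sham replicate 2. Gpx3, the secreted glutathione peroxidase, stood at 3.19 and 1.87 against -0.053, -1.07 and 0.30 among 21 antioxidant genes, whereas Sod2, the mitochondrial superoxide dismutase, differed by -0.58 ± 0.89. Gjc1, a connexin of the conduction system, stood at -2.20 and -1.84 against 0.018, 0.67 and 2.04, while Gja1, the main connexin of ventricular muscle, lay on the other side at 1.94 ± 0.58. Kcnj8, the pore of a potassium channel gated by ATP that is found in vessel walls, differed by -2.60 ± 0.65. Mcl1, a survival protein, stood at 1.37 and 1.73 against -0.86, 0.097 and -0.26, and Opa1, which fuses inner mitochondrial membranes, differed by 0.14 ± 0.72.

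The CLP hearts themselves differed from one another. Across genes, the median absolute difference was 0.609 between CLP replicates 2 and 3 and 0.625 to 0.645 between sham arrays, against 0.667 to 0.751 between a CLP and a sham array. The higher lists were higher on CLP replicate 2: the ER list averaged 2.35 against 0.96 on replicate 3, the acute phase list 1.65 against 0.59 and the neutrophil list 1.84 against 1.07. The vessel and matrix lists were lower on replicate 3: the endothelial list averaged -0.60 on replicate 2 and -2.55 on replicate 3, and the fibroblast list -0.24 and -1.23. Macrophage markers were nearer to each other, at 2.04 and 1.49. With 1 array each, these differences between the CLP hearts have no test.

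The same genes were looked up in the wild-type table of the series, which is in other units and was used for direction only. Its 9 arrays are sham hearts and CLP hearts of 2 labelled groups, Min Dep and Max Dep. Both CLP groups were pooled here, so a wild-type CLP value covers hearts that the labels keep apart. Of the 10 leading higher genes, 9 had a higher mean in wild-type CLP hearts and in 8 all CLP arrays lay above all sham arrays, a pattern found in 5.89% of genes there. Of the 10 leading lower genes, 7 had a lower mean in wild-type CLP hearts and in 2, Ltbp4 and Gsn, all CLP arrays lay below all sham arrays (6.11% of genes). Over all genes 50.8% had a higher CLP mean there, so either sign is common. Pde7a was the higher gene, and Vmn1r11, Aqp7 and Plekhg5 were the lower genes, with the opposite sign there. Over all 211 genes of the naming rule, the knockout arrays did not overlap in 168. The rule favours such genes, since it picks by small knockout p (over all genes 15.0% lay above and 14.0% below). Of 93 above in the knockout, 31 lay above and 4 below in wild type. Of 75 below, 19 lay below and 2 above. Over all genes the wild-type shares are the 5.89% above and 6.11% below given before. These counts are a description and test no agreement between the genotypes. Of the 168, 112 overlapped between the groups in wild type, 50 lay apart there on the same side and 6 on the opposite side. The 6 were Kdr and Phb2, a prohibitin of mitochondria, which lay below the sham arrays in the knockout and above them in wild type, and Ccnd1, Ppp1r3c, which brings a phosphatase to glycogen, Prkar1a, a regulatory subunit of protein kinase A, and Dnajb4, a heat shock co-chaperone, with the reverse. Tie1 had a higher CLP mean in wild type with overlapping arrays. Ucp3 and Pdk4 lay below and Myh7 above the sham arrays in both tables. Genotype, table and array model cannot be told apart, and no difference between the genotypes was tested.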

How the data were processed

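Total RNA from 6 knockout hearts was hybridised to oligonucleotide arrays, 1 array per heart. The values, a score per probe set in the table the authors deposited, behave as log differences centred per probe set; no source used here names the software, the log base or the normalization. The wild-type table the authors deposited holds a standardised score and was used for direction only. Depth and signal over background are not held in these values, so precision is limited by the number of arrays.

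The 64 control probe sets were left out. Of 22626 others, 20380 were paired with 1 gene by the platform annotation, 691 with several and 1555 with none; the first kind was averaged to 12393 genes. CLP replicates 2 and 3 were compared with 3 sham arrays by lmFit and eBayes of limma 3.58.1 in R 4.3.3, with Benjamini-Hochberg adjustment over all genes and a threshold of 0.05. The script was tested on simulated data. Replicate numbers only name arrays.

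Members and the 31 pathway and 17 cell type lists were chosen with earlier results of these data known. Named genes were, per direction, the 10 of smallest p among those whose groups do not overlap (none passed), up to 4 of smallest p per list and 25 fixed genes, of which Adrb1 and Trim63 have no probe set of their own. Other genes (such as Ngp, H2-Ab1, Per1 and those named for a promoter motif) were named after their values were seen. Alternatives covered the arrays entered, probe sets, moderation, centring, scaling, a noise filter and RNA quality. Promoters are RefSeq's.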

Additional observations from a re-analysis of the deposited data

How the results depend on the processing

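No gene, and no gene of the lists, passed the adjusted threshold in the fit reported or with every probe set tested, the median or only plain probe sets per gene, unmoderated or robust statistics, arrays centred, scaled or quantile normalized, the difference of 5′ and 3′ controls as a covariate, or any array left out (1476 genes at an unadjusted p under 0.05 in the fit reported). The alternatives that did give calls were 4. All 3 CLP arrays gave 295 genes, 49 of them in the lists. Leaving out the noisiest 25% of genes gave 732 and 87; this filter keeps genes by the spread the test uses, so its p-values are too small by construction. The remainder as an added CLP array, chosen after seeing the data, gave 19 and 3, and a threshold of 0.10, also chosen then, 87 and 21. The 20 leading genes kept their sign in all 16 other settings run for them, with adjusted p-values from 6.06e-09 to 0.471. Among the other genes named, the sign turned with all 3 CLP arrays for Nppa (-0.45); with the median of the probe sets for Apoa1 (-0.0028) and Csf1r (0.0012); with plain probe sets only for Csf1r (0.11); with the control difference as a covariate for Acadm (0.80), Nppa (-0.58), Prtn3 (0.0053) and Sod2 (0.48); with the remainder as an added CLP array for Nppa (-1.43) and Prtn3 (0.14). With 1 array left out at a time it turned for Acadm (-1.39 to 0.81), Apoa1 (-0.20 to 0.36), Arntl (-1.84 to 0.77), Bhlhe41 (-2.55 to 0.62), Cd163 (-1.83 to 0.21), Cry1 (-0.019 to 0.30), Csf1r (-0.45 to 0.30), Fkbp5 (-1.55 to 0.21), Flt1 (-3.06 to 0.30), Mpo (-0.034 to 0.80), Nos2 (-1.59 to 0.42), Nppa (-3.35 to 3.51), Opa1 (-0.62 to 0.90), Pln (-0.99 to 1.27), Prtn3 (-0.17 to 0.043), Sod2 (-1.54 to 0.38), Tsc22d3 (-2.13 to 0.061) and Vwf (-0.016 to 2.44). The cause was not tested. No paired analysis was possible because the labels carry no replicate numbers, and the arrays were numbered in the order listed. With 2 CLP arrays the fit has 3 residual degrees of freedom, which with the missing signal over background limits what could be called.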

Other observations

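Some further genes of the lists also lay apart between the groups. Ttr, the thyroid hormone carrier transthyretin that liver and brain make in quantity, stood at 3.14 and 4.23 against -0.18, -0.021 and -0.61 as the mean of 3 probe sets, while Alb, the albumin of liver, differed by 0.51 ± 0.43 and Apoa1, the main protein of HDL, by 0.078 ± 0.44. In the remainder of CLP replicate 1 Ttr lay at -1.49. Among 16 glycogen genes, Ppp1r3c, which brings a phosphatase to glycogen, stood at 0.49 and 3.71 against -0.83, -0.13 and -0.31, and Pygl, the liver form of glycogen phosphorylase, at 1.18 and 0.83 against -0.42, 0 and -0.65. Cdk2, a kinase of the cell cycle, lay on the opposite side to Ccnd1 and Mki67, at -1.50 and -2.14 against 0.41, 0.41 and 0.22. Casp4, the caspase that senses bacterial lipopolysaccharide, stood at 3.15 and 0.45 against -0.57, 0.33 and -1.40. None of these passed the adjusted threshold (limma), and Alb and Apoa1 were named for comparison after their values were seen.

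The hybridisation control probe sets, which report RNA added at a fixed amount after extraction, also varied between arrays. Their median over 14 probe sets was 1.33 and -1.73 on CLP replicates 2 and 3 and 1.75, 0.755 and 0 on the sham arrays. In the remainder Xist lay at -10.8 while the Y-linked Eif2s3y lay at -0.166. With the remainder in place of CLP replicate 1, and the shift of sham replicate 1 taken off, 19800 probe sets had exactly 1 of the 6 columns at the centre. In the other 2890 (12.7%), 3 columns lay above and 3 below it.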
